A study of Homo sapiens with 3 samples.

Results

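The genes described here encode the RAS, RAF, MEK and ERK proteins of the growth factor cascade, namely HRAS, NRAS, ARAF, BRAF, MAP2K1, MAP2K2 and MAPK3. They were chosen by gene name, and every probe carrying 1 of these names was followed separately, which gave 9 probes for 7 of the 43299 gene names on the array. Expression was measured in HCT116 cells, a human colorectal carcinoma line, after transfection with small interfering RNA against SMARCA4, a catalytic subunit of SWI/SNF chromatin remodelers. The groups were SMARCA4-KD1, SMARCA4-KD2 and the control NC, with 1 array each of total RNA labelled with Cy3, and the cells of all groups were grown in the same serum-containing medium and, by the same protocol text, transfected with Lipofectamine 3000. The sample titles and the siRNA protocol name SMARCA4, while the treatment field names PRMT1, and the knockdown number was read from that field. SMARCA4 signal was 14026 in NC, 3960 with SMARCA4-KD1 and 4129 with SMARCA4-KD2, so that 26.6% and 28.8% of the NC level were left after scaling, whereas PRMT1 had log2 fold changes of 0.27 and 0.37. Slide 1 held both knockdown arrays and slide 2, read in another scan, held the NC array, and batch and group cannot be told apart. There was no replicate of any group, so no fold change has a replicate check.

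In this cascade a RAS protein at the plasma membrane is switched on when it exchanges GDP for GTP after receptor activation. Active RAS recruits RAF kinases, which phosphorylate the MEK kinases, which in turn phosphorylate the ERK kinases, and ERK then acts on cytoplasmic and nuclear substrates that promote growth and division. The pathway is a frequent target of activating mutations in colorectal cancer, and its activity is set mainly by phosphorylation and GTP loading, which an array of transcripts does not measure.

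The results turn on HRAS and NRAS, so the probes that read their coding sequences are shown first. The HRAS probe maps to the minus strand at chr11:533600-533812 of hg19, a stretch of 213 bases for a 60-base probe, which therefore spans an intron of the gene. The NRAS probe shown maps to the minus strand at chr1:115251165-115251224 and reads the end of the coding sequence. Both are printed as the array files give them.
HRAS probe A_23_P98183: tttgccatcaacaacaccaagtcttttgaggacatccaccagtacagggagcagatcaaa
NRAS probe A_33_P3317825: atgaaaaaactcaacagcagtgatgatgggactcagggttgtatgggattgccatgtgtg

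The 250 bases before the start of HRAS and of NRAS, the members whose transcripts moved in opposite directions, are shown from RefSeq (GRCh38.p14). All 7 members had an entry in the promoter table. The HRAS window lies on the minus strand at chr11:535577-535826 and the NRAS window on the minus strand at chr1:114716772-114717021. Capitals mark GC boxes (GGGCGG, or CCGCCC on the other strand).
HRAS promoter: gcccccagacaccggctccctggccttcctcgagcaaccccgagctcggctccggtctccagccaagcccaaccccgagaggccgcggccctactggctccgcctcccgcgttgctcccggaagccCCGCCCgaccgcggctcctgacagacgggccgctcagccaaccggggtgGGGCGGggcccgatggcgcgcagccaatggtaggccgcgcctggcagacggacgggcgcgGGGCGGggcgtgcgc
NRAS promoter: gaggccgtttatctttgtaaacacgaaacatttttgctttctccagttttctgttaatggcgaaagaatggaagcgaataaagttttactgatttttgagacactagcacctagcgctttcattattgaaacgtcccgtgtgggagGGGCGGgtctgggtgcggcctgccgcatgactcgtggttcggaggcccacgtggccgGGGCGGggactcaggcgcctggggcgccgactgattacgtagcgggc
The HRAS window held 3 GC boxes and had a GC content of 77.2%, and the NRAS window held 2 GC boxes with a GC content of 54.4%. Of the 35116 promoter windows of the same length in the table, 42.6% held a GC box. The HRAS window also held 1 CCAAT box (CCAAT or ATTGG), found in 32.0% of windows, and 1 ETS core (CCGGAAG or CTTCCGG), found in 8.52%. The NRAS window held neither, but held 1 E box (CACGTG), found in 6.34%. An AP-1 site (TGANTCA), found in 6.57% of windows, was in neither of them. Matches of different motifs shared no base in these windows. Among the other members, the MAPK3 window held 6 GC boxes, the first MAP2K1 window 3 and the first MAP2K2 window 2, while the ARAF and BRAF windows held 0. The MAPK3 window also held 1 E box. CCAAT boxes were in the windows of ARAF (2) and BRAF (1) and in the first of MAP2K1 (1). These are matches of letters and say nothing about binding.

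Among the members, HRAS was lower and NRAS was higher in both knockdowns, while the RAF, MEK and ERK genes were less than 1.5-fold from NC. All 9 probes were well above background on each array. Signals are intensities as extracted, and log2 fold changes are differences between arrays after the 75th percentile of each array (223 in NC, 237 with SMARCA4-KD1 and 228 with SMARCA4-KD2) was taken as the reference. Their error combines the spot errors that the extraction software gives on the knockdown and NC arrays, 0.14 or 0.15 per array on the log2 scale. Combined as the root of the summed squares, it was 0.20 or 0.21 for each member. For HRAS the spot errors were averaged and not reduced for the number of spots. This error covers the measurement of a spot but not the spread between cultures. A probe was counted as changed when it was at least 1.5-fold apart from NC.

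**Figure D1:**
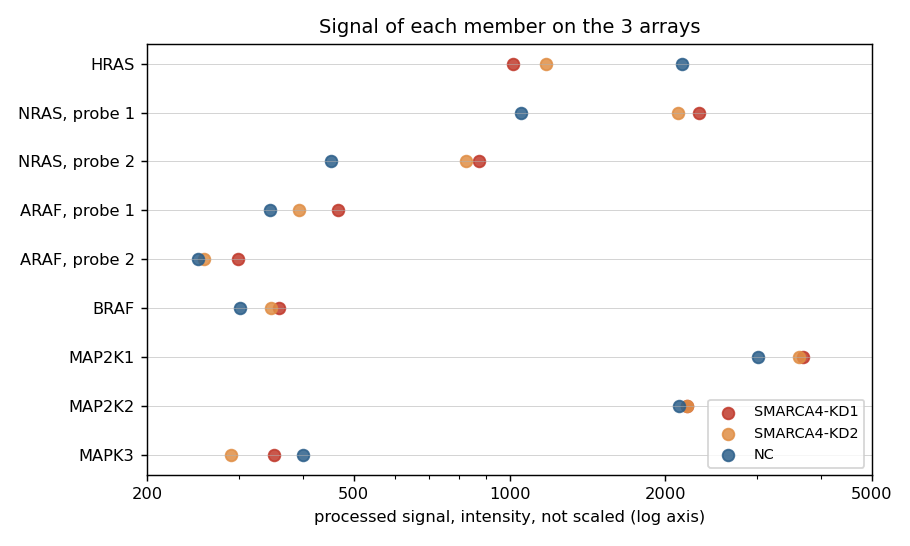
Processed signal of every probe of the 7 genes on the 3 arrays, on a log axis and before scaling, with 1 point per array. HRAS is highest in NC, both NRAS probes are lowest in NC, and the points of MAP2K2 nearly coincide (2199 with SMARCA4-KD1, 2198 with SMARCA4-KD2 and 2123 in NC).

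HRAS, a RAS GTPase of the plasma membrane, had a signal of 2152 in NC, 1016 with SMARCA4-KD1 and 1174 with SMARCA4-KD2. Both knockdown arrays were low and the NC array was high. Relative to NC, the HRAS level was 44.5% with SMARCA4-KD1 and 53.3% with SMARCA4-KD2. Its log2 fold changes were -1.17 and -0.91, with an error of 0.20 for either. Since RNA was measured in bulk, fewer cells expressing a gene and less RNA per cell cannot be told apart. HRAS was the only member whose probe was printed 10 times on each array, which shows how precisely it was read. The 10 spots lay between 971.8 and 1103 in SMARCA4-KD1, with a median of 1009. In SMARCA4-KD2 they lay between 1130 and 1210, with a median of 1182. In NC the 10 spots lay between 2084 and 2248, and the lowest of them was marked as an outlier by the software and left out of the HRAS value. The spots of NC did not overlap those of either knockdown, and the spots of the knockdowns did not overlap each other. The share of other repeated probes whose spots also lay apart between arrays was not counted, so this does not set HRAS apart from them. The SD over the HRAS spots used was 0.05, 0.04 and 0.03 on the log2 scale in SMARCA4-KD1, SMARCA4-KD2 and NC, near the median SD of 0.03 of the 280 repeated probes that were well above background throughout. The log2 difference between the knockdowns was -0.26, larger than this spread between spots, which are not replicates of a condition.

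NRAS, a RAS GTPase closely related to HRAS, was represented by 2 probes that do not overlap. The first maps to the minus strand at chr1:115249933-115249992 of hg19, in the 3′ untranslated region, and had a signal of 1052 in NC, 2320 with SMARCA4-KD1 and 2111 with SMARCA4-KD2. Here both knockdown arrays were high and the NC array was low, the reverse of HRAS. The log2 fold changes of this NRAS probe were 1.06 and 0.97, or 2.08-fold and 1.96-fold higher than NC, each with an error of 0.20. The second NRAS probe, in the coding sequence printed above, had a signal of 451.8 in NC, 873.6 with SMARCA4-KD1 and 822.9 with SMARCA4-KD2. Its log2 fold changes were 0.87 and 0.83, or 1.82-fold and 1.78-fold higher than NC, again with an error of 0.20. The change in NRAS was thus read by separate stretches of the transcript, and the values of both probes lay within their errors of each other. The knockdowns differed by 0.08 and 0.03 on the log2 scale at the first and second NRAS probe, less than the error.

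ARAF and BRAF encode RAF kinases, the first kinases of the cascade. ARAF had 2 probes, which the array assigns to different transcripts of the gene. The first, at chrX:47429320-47429379 on the plus strand, had a signal of 344.3 in NC, 466 with SMARCA4-KD1 and 393 with SMARCA4-KD2, with log2 fold changes of 0.35 and 0.16. Only the SMARCA4-KD1 value of ARAF exceeded its error of 0.20. The second ARAF probe, at chrX:47424996-47425055, had a signal of 251 in NC, 298.7 with SMARCA4-KD1 and 257.6 with SMARCA4-KD2. Its log2 fold changes of 0.17 and 0.01 lay within the error of 0.21, and the SMARCA4-KD2 value was -0.04 when only probes detected well above background on each array set the percentile. BRAF, at chr7:140434419-140434478 on the minus strand, had a signal of 302.1 in NC, 359.8 with SMARCA4-KD1 and 345.8 with SMARCA4-KD2. Both BRAF log2 fold changes, 0.17 and 0.16, lay within the error of 0.21.

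MAP2K1 and MAP2K2 encode the MEK kinases, which phosphorylate ERK. MAP2K1, at chr15:66783224-66783283 on the plus strand, had a signal of 3011 in NC, 3684 with SMARCA4-KD1 and 3613 with SMARCA4-KD2. The NC array was the lowest, and the log2 fold changes of MAP2K1 were 0.21 and 0.23, close to their error of 0.20. MAP2K2, read by a probe that spans 1889 bases of the minus strand at chr19:4095437-4097325, had a signal of 2123 in NC, 2199 with SMARCA4-KD1 and 2198 with SMARCA4-KD2. Its log2 fold changes of -0.03 and 0.02 were the smallest of the members in size by their mean of -0.01, and they became 0.27 and 0.33 with the spike-in scaling described below. An effect on MAP2K2 smaller than the error of 0.20 could not be detected on these arrays.

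MAPK3 encodes an ERK kinase, the last kinase of the cascade. Its probe, at chr16:30128237-30128296 on the minus strand, had a signal of 398.9 in NC, 350.4 with SMARCA4-KD1 and 289.6 with SMARCA4-KD2. NC was the highest array, as for HRAS. Relative to NC, MAPK3 was lower by 1.21-fold in SMARCA4-KD1 and by 1.41-fold in SMARCA4-KD2, which on the log2 scale is -0.27 and -0.49 with an error of 0.21. With spike-in scaling the first became 0.03 and the second -0.18, and with normexp background correction the first became -0.16, each within the error. The knockdowns differed by 0.22 at MAPK3, about the size of that error. In the main processing, but not with those settings, MAPK3 was the only member besides HRAS whose log2 fold change was below 0 in both knockdowns by more than its error.

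The single NC array served both comparisons, so the values of the knockdowns are not independent of each other. At 1.5-fold, 1 of the 9 probes (HRAS) was lower in SMARCA4-KD1, where 12% of the 29334 kept probes, those well above background on 1 array or more, were lower, and 2 of the 9 (both of NRAS) were higher, against 11.5% of all probes. In SMARCA4-KD2 the same HRAS probe was lower, against 9.83% of all probes, and the same NRAS probes were higher, against 10.2%. In both knockdowns together, 7.98% of all probes were lower and 6.58% were higher. Counted as genes by the brightest probe, 1 of the 7 members was lower in both and 1 was higher in both, against 8% and 6.36% of 22620 genes. With so few members, these counts lie near the background and do not set the genes apart from the rest of the array. By the smaller of its changes, HRAS lay among the 2.7% of all probes (792 of 29334) that were at least as low in both knockdowns. The first NRAS probe lay among the 1.6% (470 probes) that were at least as high in both, and the second among the 2.56% (752 probes). MAPK3 lay among the 20.1% of probes at least as low in both, and MAP2K1 among the 24.1% at least as high.

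**Figure D2:**
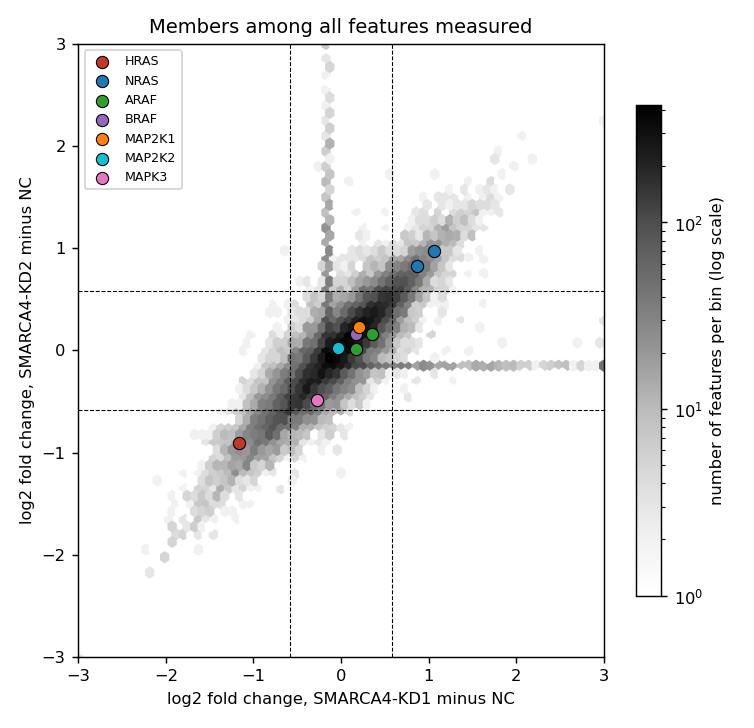
Log2 fold change against NC in SMARCA4-KD1 (x axis) and SMARCA4-KD2 (y axis) of all 29334 probes, as a grey density with values beyond the axes drawn at the edge, and of the 9 probes of the 7 genes as coloured points. Dashed lines mark 1.5-fold. HRAS lies to the lower left and both NRAS probes in the upper right, the other members lie inside the lines, and the straight arms near 0 are probes not well above background on NC and on 1 knockdown array.

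Fitted with limma over all 29334 probes, with both knockdown arrays as 1 group against NC and 1 residual degree of freedom, 0 probes (0%) passed an adjusted p of 0.05, while 8850 (30.2%) had an unadjusted p under 0.05. The methods' t-test on the same values also gave 0 probes after adjustment, with 4123 at an unadjusted p under 0.05. HRAS had a mean log2 fold change of -1.04 with an adjusted p of 0.101 by limma, and the NRAS probes had means of 1.01 and 0.85 with an adjusted p of 0.1 each. When limma was restricted to the 25282 probes well above background on all arrays, 6733 probes passed, and the adjusted p was 0.00142 for HRAS and 0.000788 and 0.00238 for the NRAS probes. In the same limma fit MAPK3 had an adjusted p of 0.104 and MAP2K1 of 0.171, and for ARAF, BRAF and MAP2K2 it was higher. Over all alternatives of the fit, limma and the methods' t-test included, the adjusted p lay between 0.00142 and 0.428 for HRAS, between 0.000788 and 0.35 for the first NRAS probe and between 0.00238 and 0.296 for the second. HRAS and both NRAS probes also passed 0.05 by limma with quantile normalization and with normexp background correction, so that the call depended on the filter and the normalization. The fit assumes for the single NC array the spread seen between the knockdown arrays.

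The reference chosen for scaling moved every member by a similar amount. The 8 E1A spike-in probes well above background on all arrays, which stand for RNA added in a fixed amount, were lower than NC by 0.30 and 0.32 on the log2 scale in SMARCA4-KD1 and SMARCA4-KD2 after percentile scaling (SD 0.09 and 0.10), and when they were taken as the reference the median of all probes moved to 0.30 and 0.33. This adds the same amount to every probe of an array and so cannot change the order of the members. With spike-in scaling HRAS had log2 fold changes of -0.87 and -0.59, and the NRAS probes had 1.36 and 1.29, and 1.17 and 1.15. HRAS therefore kept a lower and NRAS a higher level than NC, at least 1.5-fold, under each of the 7 other settings. The log2 fold changes of HRAS ran from -1.22 to -0.87 in SMARCA4-KD1 and from -0.95 to -0.59 in SMARCA4-KD2. The value of -0.59, with spike-in scaling, only just passed 1.5-fold, by much less than its error of 0.20. ARAF reached a log2 fold change of 0.65 in SMARCA4-KD1 with spike-in scaling, past 1.5-fold in that knockdown, and 0.47 in the other. With spike-in scaling, 818 of all probes passed as lower in both knockdowns and 5707 as higher, against 2342 and 1929 with percentile scaling.

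The genes with the log2 fold changes most like those of the first NRAS probe, by Euclidean distance over the pair of knockdowns on 3 arrays among 19494 genes, were CFD (1.06 and 0.95), MEF2BNB (1.05 and 0.95), TOMM34 (1.08 and 0.99), CENPBD1P1 (1.04 and 0.95) and ALG3 (1.04 and 1.00). This likeness of NRAS to other genes rests on 2 values per gene.

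Other genes of the cascade, from 7 hand-written lists, give the setting in which HRAS and NRAS moved. By the brightest probe of each gene, 100 of the 108 listed genes were measured. In the main processing 7 were lower and 8 higher by at least 1.5-fold in both knockdowns. These counts lay near the background of 8% and 6.36% of all genes. With quantile normalization 9 were lower and 6 were higher, against 8.57% and 5.67% of all genes, and with spike-in scaling 2 were lower and 25 were higher, against 2.88% and 19.2%. After normexp background correction 6 were lower and 9 were higher, against 3.79% and 3.99% of all genes. In that setting the counts lay above the background, a difference that was not tested. With only probes well above background on all arrays, 6 were lower and 8 were higher, against 7.49% and 6.78% of all genes. For the exchange factors that load RAS with GTP, 6 of 8 were measured, with a median of their mean log2 fold change of -0.31, against 0.03 over all genes. By the brightest probes, RASGRF1 was the 1 exchange factor counted as lower in both. It was well above background in NC only, so it was kept through NC and could not have been counted as higher. Its values, lower by at least 2.27-fold in SMARCA4-KD1 and at least 2.28-fold in SMARCA4-KD2, are bounds. RASGRP2 had 0.26 and 0.25 by its brightest probe, while 2 other probes of it were lower in both (-0.62 and -0.76, and -0.71 and -0.59). Of the GTPase-activating proteins that switch RAS off, 9 of 10 were measured, with a median of -0.33, and RASA4 (-0.83 and -0.77) and DAB2IP (-0.92 and -0.75, its other kept probe not well above background in either knockdown) were lower in both. None of the 13 measured RAS-related small GTPases passed in both knockdowns (median 0.06), and DIRAS3 came nearest, with 0.57 and 0.67. The 19 measured scaffolds and modulators had a median of 0.04, and KSR2, a scaffold of RAF and MEK, was higher, at 1.11 and 1.26 by its brightest probe, while its other probe was not well above background in NC.

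Downstream of MAPK3, the 16 measured ERK substrates had a median of 0.36. Of these, ELK3 (1.04 and 0.89), ERF (0.91 and 0.82) and the kinase RPS6KA4 (0.83 and 0.76) were higher in both knockdowns, and RPS6KA2 (-1.11 and -0.85) was lower. The 17 transcripts known to respond to ERK had a median of 0.00, with EGR1 (1.24 and 1.28) higher and PHLDA1 (-1.23 and -1.19) and CCND1 (-0.71 and -0.99) lower in both. In the other MAP kinase modules, 20 of 22 genes were measured, with a median of 0.06. Of these, MAPK11 (1.13 and 1.04), MAP2K3 (0.79 and 0.66) and MAP2K7 (0.61 and 0.73) were higher in both and MAPK9 (-0.88 and -0.74) was lower, the last by its brightest probe, while its other probe had -0.12 and 0.00. As for RASGRP2, a probe that was not the brightest passed in both knockdowns for MKNK2 (0.89 and 0.91), MAP3K4 (0.64 and 0.74), RPS6KA5 (-1.16 and -1.32) and MAP2K4 (-0.76 and -0.71), which are not counted. For comparison, the 7 members had a median of 0.17 by their brightest probes.

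The label of the cells was checked on markers. Of 8 markers of colorectal epithelium, EPCAM, KRT8, KRT18, KRT19, CDH1 and CDX2 were well above background on all arrays and VIL1 and LGALS4 on none, with 0 of the 6 at least 1.5-fold from NC in both knockdowns. The signal summed over all probes of the 8 markers was 398080 in NC, 428847 with SMARCA4-KD1 and 418415 with SMARCA4-KD2. Well above background on all arrays were 1 of 5 fibroblast markers, 3 of 5 leukocyte markers and 2 of 3 endothelial markers. In the order SMARCA4-KD1, SMARCA4-KD2 and NC, the fibroblast sums were 495, 405 and 366. Most of this was COL1A1, with 477.4, 387.5 and 347.7, the only one measured. The sums were 236, 190 and 202 for the leukocyte and 111, 141 and 118 for the endothelial markers. Levels of different probes cannot be compared, so the sums are not set against each other. The part of these markers in the values of HRAS and NRAS was not tested.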

How the data were processed

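Total RNA of HCT116 cells was measured on Agilent 1-colour arrays, 1 each for SMARCA4-KD1, SMARCA4-KD2 and NC. The authors deposited scanner files with the intensity of each spot, background-subtracted and detrended with Agilent Feature Extraction 10.7.1.1 and not normalized between arrays, and a series-level table of the same intensity. Control and outlier spots were left out, repeated spots were averaged as log2 values, and the 75th percentile of each array was subtracted. Values not well above background were set to the lowest value well above background on that array where they were below it. Kept were the 29334 of 58171 probes that passed the software's flag for signal well above background on 1 array or more, and lists used the brightest kept probe per gene. Fold changes have no test. Both knockdowns against NC were fitted with limma 3.58.1 (R 4.3.3) using an intensity trend, with p-values adjusted after Benjamini-Hochberg over all probes. The fit was also run on simulated arrays, where only the 1.5-fold rule had a pass criterion. Those arrays all had the spread seen between the knockdown arrays and no difference between slides, so they do not check the adjusted p-values. Other work used Python 3.11.15, numpy 2.4.6, pandas 2.3.3 and matplotlib 3.10.9. Listed genes were named when at least 1.5-fold from NC in both knockdowns (up to 4 each way per list), or the nearest to it. Members and lists were chosen with earlier results of these data known. The siRNA sequences, and a further comparison with neighbouring genes besides the one given at the end, are not reported here.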

Additional observations from a re-analysis of the deposited data

How the results depend on the processing

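No paired analysis was possible because each group has 1 array. Of the 18 log2 fold changes of the members, recomputed under 7 other settings (126 values, including outlier spots kept, a setting chosen after seeing the data), 108 moved by less than the extraction error and 18 by more. None of the 6 values past 1.5-fold changed sign, while 6 recomputed values of smaller changes did: MAPK3 in SMARCA4-KD1 (-0.27 to 0.03) and MAP2K2 in SMARCA4-KD1 (-0.03 to 0.27) with spike-in scaling, MAP2K2 in SMARCA4-KD2 (0.02) with quantile normalization (-0.03), the percentile over probes well above background (-0.03) and normexp (-0.04), and the second ARAF probe in SMARCA4-KD2 (0.01 to -0.04) with that percentile. The 18 were those with spike-in scaling. In SMARCA4-KD1 and SMARCA4-KD2 they were -0.87 and -0.59 for HRAS, 1.36 and 1.29 for the first and 1.17 and 1.15 for the second NRAS probe, 0.65 and 0.47 for the first and 0.47 and 0.32 for the second ARAF probe, 0.47 and 0.48 for BRAF, 0.51 and 0.55 for MAP2K1, 0.27 and 0.33 for MAP2K2, and 0.03 and -0.18 for MAPK3. That scaling left 818 probes lower and 5707 higher in both knockdowns, and 2 pathway genes lower and 25 higher, against 2.88% and 19.2% of all genes. At 2-fold, 0 member probes were lower and 0 higher in both, with 588 lower and 428 higher among all probes and 2 lower and 3 higher among pathway genes, against 2.09% and 1.46% of all genes. Normexp background correction left 1020 probes lower and 1118 higher. It left 6 pathway genes lower and 9 higher, against 3.79% and 3.99% of all genes. Limma called 6733 probes with the filter on all arrays, 3118 with quantile normalization and 4219 with normexp, against 0 with the trend, 0 without it and 0 with the methods' t-test, and 2404 passed an unadjusted p of 0.01 and 1.5-fold. Why these counts moved was not tested. Signal over background makes the RASGRF1 values in the knockdowns bounds.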

Other observations

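The protein-coding genes next to HRAS in the RefSeq order (GRCh38.p14, used for names only) were read as well, a choice made after the value of HRAS was seen. Up to 3 genes on each side were taken. LRRC56, beside HRAS, had a signal of 587 in NC, 543.7 with SMARCA4-KD1 and 541.5 with SMARCA4-KD2, with log2 fold changes of -0.19 and -0.15. LMNTD2, on the other side of HRAS, had log2 fold changes of -0.29 and -0.17. Farther out, RASSF7 had 0.36 and 0.13, RNH1 had 0.49 and 0.56 and PTDSS2 had 0.39 and 0.35. None of these neighbours was 1.5-fold lower in either knockdown, while HRAS had -1.17 and -0.91. The share of all kept probes lower by 1.5-fold was 12% for SMARCA4-KD1 and 9.83% for SMARCA4-KD2. For so few genes, the absence of a lower neighbour lies near this background and does not set the neighbours apart from other genes.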
